A study of Mus musculus with 265 samples.

Results

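The 6 genes described here encode transcriptional regulators: Mef2a, Mef2c and Mef2d of the MEF2 family, and Hbp1, Mier1 and Rreb1. The text of the study names Mef2c, Hbp1 and Rreb1 in its network downstream of Ikaros and Mier1 among the genes of its expression data, and Mef2a and Mef2d were taken in as relatives of Mef2c. Their regions were chosen by position alone. A region belonged to a gene when the nearest start site of a protein-coding transcript in GENCODE vM21 was that of the gene and lay within 50 kb of the midpoint of the region. By this rule 29 of the 20103 deposited regions were members, 13 with a midpoint within 1 kb of a start site (promoter regions) and 16 farther away (distal regions). Mef2c had 10 regions (3 promoter, 7 distal), Rreb1 had 7 (3 and 4), Hbp1 had 4 (2 and 2), Mef2a had 3 (2 and 1), Mef2d had 3 (1 and 2) and Mier1 had 2, both at promoters. A further 20 regions were nearest to Mef2c (14), Mef2a (5) or Rreb1 (1) but beyond 50 kb, and were not counted.

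MEF2 factors bind A/T-rich DNA through a MADS domain and switch between repression, when class IIa histone deacetylases are bound to them, and activation, when calcium and MAP kinase signals release these enzymes. Mef2c has a known role in B cell development and in proliferation after B cell receptor signalling. HBP1 is an HMG-box repressor that binds the retinoblastoma protein and slows the cell cycle, MIER1 is an ELM2-SANT protein that recruits histone deacetylases HDAC1 and HDAC2, and RREB1 is a zinc finger factor that acts downstream of RAS signalling.

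The study used ERt2-Ikaros B3 cells, one mouse pre-B cell line in which an Ikaros fusion to the ERt2 ligand-binding domain enters the nucleus with 4-hydroxytamoxifen (4OHT), so that cells of both time-points carry the fusion. The 0-hour cells had received no 4OHT, and the 24-hour cells had received 20 mM over 24 hours, the concentration as the labels give it, with another dose at about 12 hours. Chromatin accessibility was measured in single cells by ATAC-seq, in which Tn5 transposase cuts and tags open DNA, with 2 Fluidigm C1 runs at each time-point. The runs carry the labels' experiment numbers: 0-hour run 1 (48 cells), 0-hour run 2 (47 cells), 24-hour run 3 (60 cells) and 24-hour run 4 (72 cells). Where 4 values follow each other below, they are those of runs 1, 2, 3 and 4 in this order, the first pair 0-hour and the second pair 24-hour. No source used here says whether the runs came from separate cultures, so the p-values set differences against the spread between runs, which may be technical.

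The runs summed to 92639 to 164357 counts, and the median cell of 0-hour run 1 (2898 counts) was deeper than those of the other runs (1676 to 1839.5). Promoter regions of all genes took 57.8%, 55.0%, 65.2% and 73.4% of the counts, and distal regions within 50 kb took 31.6%, 33.3%, 26.5% and 20.5%. Both quantities moved with the time-point, and their part in the results below was not tested. Of the pre-B marker genes reported here, 9 had a promoter region, and Rag1 and Rag2 had none. Their summed level was 81.5, 93.9, 80.8 and 64.5 counts per 100000, but the genes went apart. Igll1 had signal in 25%, 14.9%, 5% and 0% of cells, Vpreb1 in 14.6%, 19.1%, 3.33% and 1.39% and Il7r in 16.7%, 8.51%, 1.67% and 1.39%, while Pax5 was at 35.4%, 25.5%, 35% and 31.9%. Among markers of other cell types, 1 of 5 T cell genes (Cd3d, 3.24 to 5.48 per 100000), 1 of 5 myeloid genes (Lyz2, 0 to 4.32 per 100000) and 0 of 3 erythroid and 0 of 3 fibroblast genes had a promoter region.

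The sequences of 7 member regions are given here because the results turn on them: the 2 regions with an unadjusted p under 0.05, the distal region detected in the most cells, and the 4 distal regions with the lowest changes among those seen in at least 10 cells. All are on the forward strand of mm10, read from the RefSeq GRCm38.p6 assembly of the same build. Capitals mark GGGAA, the core of the site that Ikaros binds, on either strand, and in the second sequence they mark matches to the MEF2 site.
Mef2c, internal start site (promoter, chr13:83572146-83572285): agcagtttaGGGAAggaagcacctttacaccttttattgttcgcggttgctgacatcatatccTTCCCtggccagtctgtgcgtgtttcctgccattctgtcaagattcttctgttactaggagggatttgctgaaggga
Mef2c, intron (distal, chr13:83603948-83604093): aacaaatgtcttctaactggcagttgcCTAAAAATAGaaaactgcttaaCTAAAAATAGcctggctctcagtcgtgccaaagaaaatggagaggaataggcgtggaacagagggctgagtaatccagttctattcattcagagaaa
Mef2c, intron (distal, chr13:83609270-83609438): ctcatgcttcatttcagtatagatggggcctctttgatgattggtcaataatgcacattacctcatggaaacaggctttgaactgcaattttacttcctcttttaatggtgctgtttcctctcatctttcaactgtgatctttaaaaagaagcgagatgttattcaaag
Mef2d, upstream of the start site (part of a promoter region, chr3:88142305-88142371): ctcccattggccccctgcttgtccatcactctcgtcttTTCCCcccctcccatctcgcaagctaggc
Mef2d, intron (distal, chr3:88148456-88148552): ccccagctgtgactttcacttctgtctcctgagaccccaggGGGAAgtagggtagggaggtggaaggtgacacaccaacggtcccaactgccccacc
Rreb1, intron (distal, chr13:37830902-37830990): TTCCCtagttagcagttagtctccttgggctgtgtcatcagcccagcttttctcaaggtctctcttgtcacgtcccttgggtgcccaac
Hbp1, upstream, in the gene body of Prkar2b (distal, chr12:31973603-31973737): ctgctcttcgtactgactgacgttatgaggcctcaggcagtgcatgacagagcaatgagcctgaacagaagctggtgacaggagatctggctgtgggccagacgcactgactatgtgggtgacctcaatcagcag

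To ask whether accessibility at these genes differed between the time-points, run sums of the counts were compared over all 20103 regions. The clearest difference lay at an internal start site of Mef2c, where signal was seen in 29.5% of 0-hour cells and 6.06% of 24-hour cells. At the Mef2d promoter the depth-normalised signal of both 24-hour runs lay above that of both 0-hour runs, while its shares of cells overlapped, and an intronic Mef2c region kept nearly the same share of cells in all runs. None of the 29 regions passed an adjusted p of 0.05 with edgeR's quasi-likelihood test, against a background of 11 of 20103 regions (0.0547%) in either direction. DESeq2 called 0 of all 20103 regions (0%), so that its count says nothing particular about these 29. At an unadjusted p of 0.05, edgeR counted 2 members, 1 lower and 1 higher at 24 hours, beside 12.1% of all regions in either direction. DESeq2 counted 1 member at this threshold, beside 5.40% of all regions. The adjusted p-values of the members ranged from 0.249 to 0.989. With 2 runs per time-point, an exact permutation test of a single value cannot go below 0.333.

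**Figure D1:**
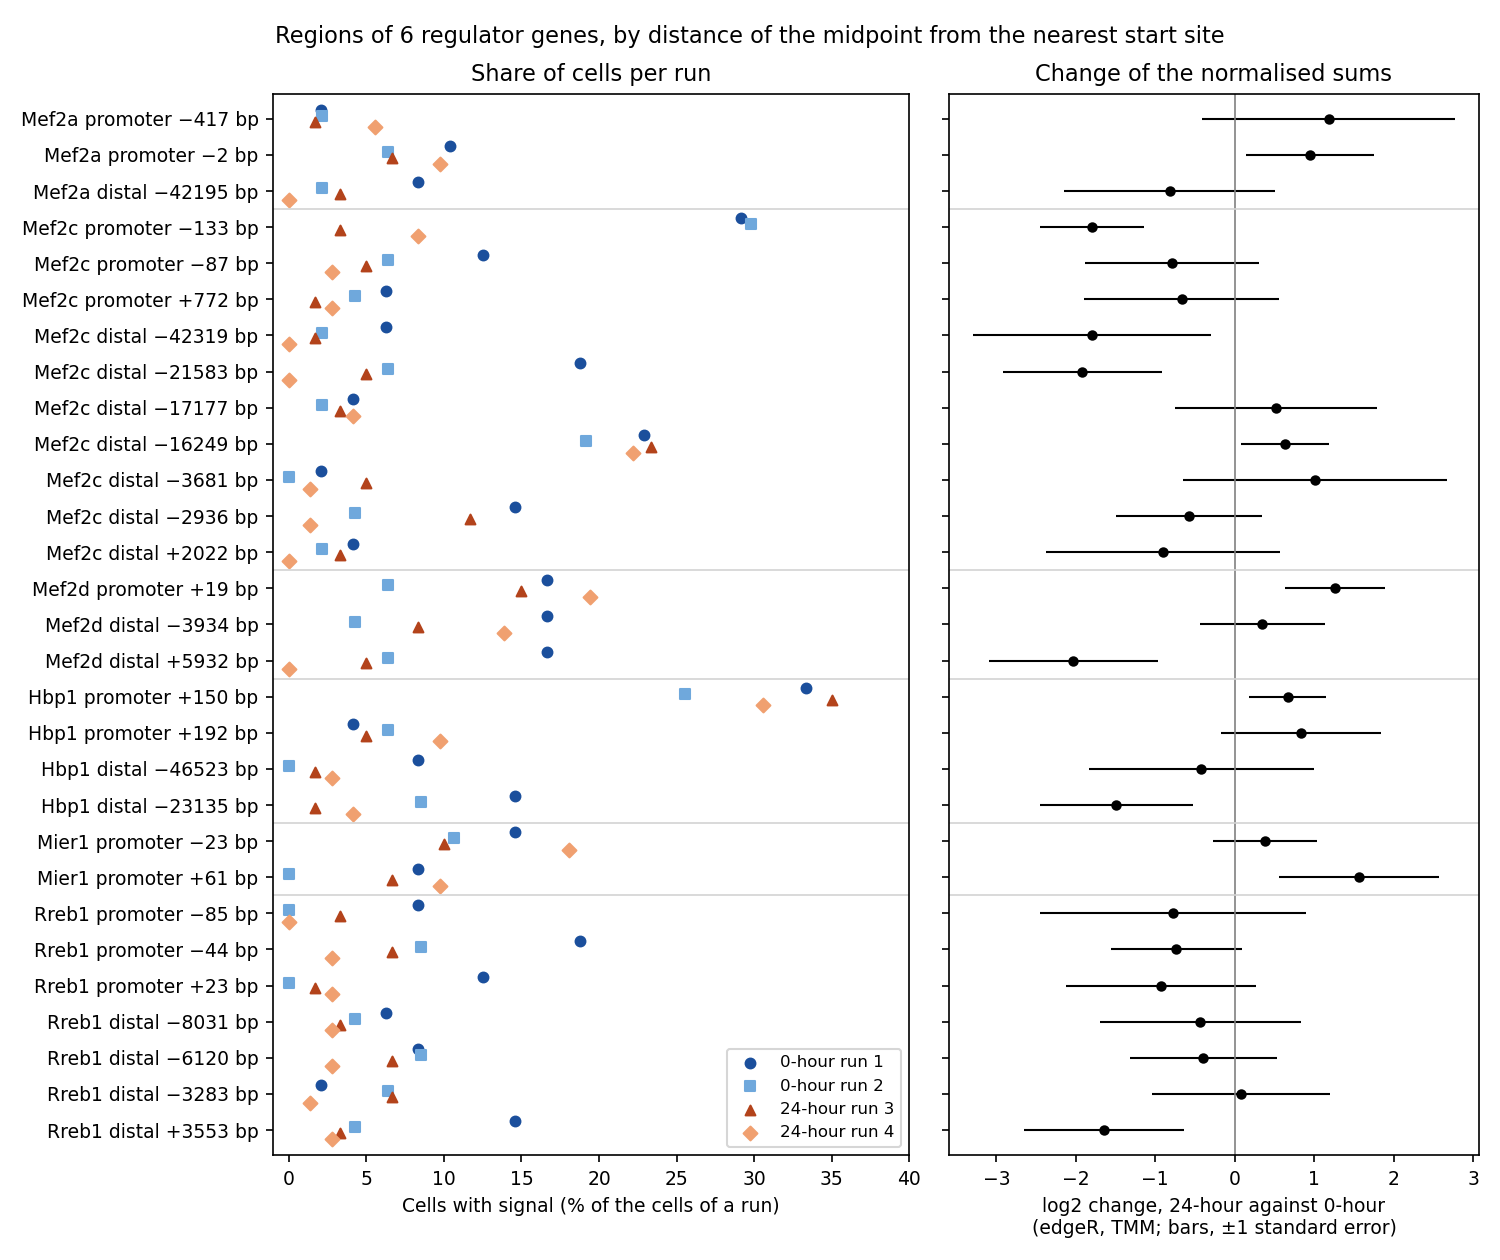
Left, the share of cells with signal (% of the cells of a run) at each of the 29 regions in the 4 runs, with the distance of each region's midpoint from the nearest start site in bp. Right, the log2 change from 0 to 24 hours with 1 standard error (edgeR, TMM). The Mef2c region 133 bp upstream of its start site lies at 29.2%, 29.8%, 3.33% and 8.33%, and most other bars cross 0.

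Mef2c spans 23 annotated protein-coding start sites over 149 kb of chromosome 13, and its regions fall at several of them. The promoter region with the most signal lay 133 bp upstream of the start site of transcript Mef2c-208, within an intron of longer transcripts. It was detected in 29.2% of cells of 0-hour run 1 (95% exact Clopper-Pearson interval 17.0 to 44.1%), 29.8% of 0-hour run 2 (17.3 to 44.9%), 3.33% of 24-hour run 3 (0.406 to 11.5%) and 8.33% of 24-hour run 4 (3.12 to 17.3%). These intervals cover counting error only. Runs 1 and 2 were each well above runs 3 and 4, and of the intervals across time-points only those of runs 1 and 4 overlapped. The runs held 20, 20, 4 and 8 counts, a log2 change of -1.80 with a standard error of 0.66 (edgeR unadjusted p = 0.00831, adjusted p = 0.249; DESeq2 log2 change -1.83, unadjusted p = 0.0264). When each cell was thinned to 837 counts, the shares were 8.33%, 17.4%, 2.13% and 3.17%, in the same order of time-points.

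The other 2 Mef2c promoter regions were seen in few cells. The region 87 bp upstream of the start of Mef2c-227 was detected in 12.5%, 6.38%, 5% and 2.78% of cells (log2 change -0.79, standard error 1.09). The region 772 bp downstream of the start of Mef2c-215 was detected in 6.25%, 4.26%, 1.67% and 2.78% (log2 change -0.67, standard error 1.23). At each of these regions runs 1 and 2 had larger shares than runs 3 and 4, but the standard errors exceeded the changes. These shares are not corrected for the greater depth of run 1. Normalised sums of the first region overlapped between time-points, at 48.5, 31.3, 32.3 and 14.7 CPM (counts scaled to equal depth). Those of the second were 30.3, 31.3, 8.09 and 29.3 CPM, lower at 24 hours without overlap, beside 14.3% of all promoter regions. Taking the 3 promoter regions as one sum, 43.8%, 38.3%, 8.33% and 12.5% of cells had signal, a mean of 41.0% ± 3.86 (SD, n = 2 runs) against 10.4% ± 2.95. With thinned cells these shares were 16.7%, 19.6%, 4.26% and 4.76%, so that the difference of the means shrank from -30.6 to -13.6 points. The sum had a log2 change of -1.39 with a standard error of 0.53 (edgeR unadjusted p = 0.00959, adjusted p = 0.222).

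The 7 distal regions of Mef2c differed among themselves. The intronic region 16249 bp upstream of the start of Mef2c-230 was detected in 50 of 227 cells, at 22.9%, 19.1%, 23.3% and 22.2%. The 4 runs were nearly level, and the depth-normalised sums gave a log2 change of 0.63 with a standard error of 0.55 (edgeR adjusted p = 0.700). This change was 0.12 with thinned cells, 0.20 when scaled by cell number and 0.86 without 0-hour run 2. With thinned cells the shares were 10.4%, 8.70%, 10.6% and 6.35%. This region was the only one of the 16 member distal regions whose normalised sums in runs 3 and 4 both exceeded those in runs 1 and 2. The other intronic region shown above, with the MEF2 matches, was detected in 18.8%, 6.38%, 5% and 0% of cells (16, 5, 5 and 0 counts), a log2 change of -1.92 with a standard error of 1.00 (edgeR adjusted p = 0.439). The 0 of 72 cells in run 4 allow a share of up to 4.17% by the limit of 3 counts, and the exact interval reaches 4.99%. Without 24-hour run 3 this region passed the adjusted threshold of edgeR (log2 change -6.38, adjusted p = 0.0325), as did 797 of 20098 regions (3.97%) in that fit. With 0 counts in run 4, the size of that change depends on the prior count of the fit. Without run 4 its log2 change was -0.93 (adjusted p = 0.792).

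The remaining Mef2c distal regions held less signal. The region 2936 bp upstream of the start of Mef2c-211 split the runs of each time-point, at 14.6%, 4.26%, 11.7% and 1.39%. The others, at 42319, 17177 and 3681 bp upstream and 2022 bp downstream of a start site, were seen in 5 to 8 cells each, too few to compare. For the distal regions as one sum, 45.8%, 31.9%, 38.3% and 25.0% of cells had signal, and the time-points overlapped (log2 change -0.14, standard error 0.41, edgeR adjusted p = 0.930). The change was -0.98 with 1 start site per gene, where other regions enter the sum, and -0.63 when scaled by cell number.

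**Figure D2:**
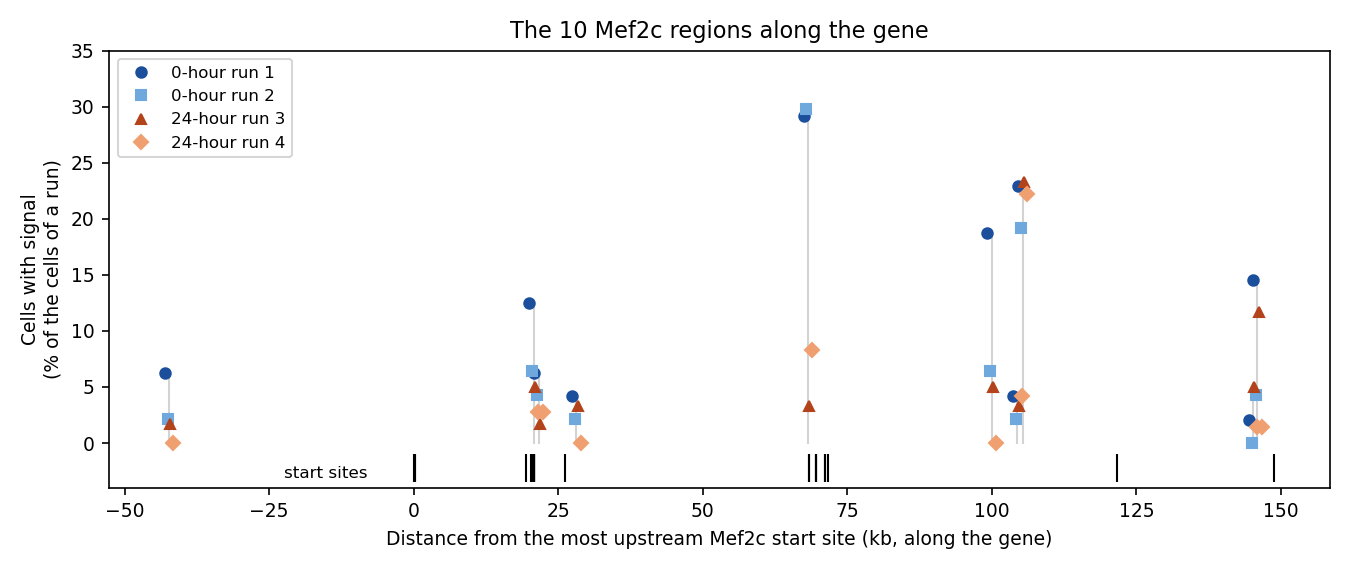
Share of cells with signal (% of the cells of a run) at the 10 Mef2c regions, placed by distance in kb from the most upstream start site of the gene; black ticks mark its start sites. At 68.2 kb runs 1 and 2 (29.2% and 29.8%) stand above runs 3 and 4 (3.33% and 8.33%), while at 105 kb all 4 runs lie between 19.1% and 23.3%.

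Mef2d, which like Mef2a is expressed in many tissues, had 1 promoter region, which covers its most upstream start site (chr3, 88142305 to 88142478) and is partly shown above. Its shares of cells were 16.7%, 6.38%, 15.0% and 19.4%, from 13, 4, 13 and 27 counts. The shares of the time-points overlapped at the deeper run 1, but the normalised sums of runs 3 and 4 both exceeded those of runs 1 and 2. The log2 change was 1.26 with a standard error of 0.63 (edgeR unadjusted p = 0.0485, adjusted p = 0.407; DESeq2 unadjusted p = 0.108). The intronic region 5932 bp downstream of a Mef2d start site went the other way, at 16.7%, 6.38%, 5% and 0% of cells (log2 change -2.03, standard error 1.07, edgeR adjusted p = 0.446). Its change was -6.18 (adjusted p = 0.0518) without run 3, where only the 0 counts of run 4 are left at 24 hours, and -1.04 without run 4. The region 3934 bp upstream of the gene was detected in 16.7%, 4.26%, 8.33% and 13.9% of cells (log2 change 0.35, standard error 0.78), with runs 3 and 4 between runs 1 and 2. With thinned cells this change was 2.87, and when scaled by cell number it was -0.23.

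Mef2a, known for its role in muscle, had a promoter region across the start site that 5 of its transcripts share (chr7, 67372760 to 67372960). It was detected in 10.4%, 6.38%, 6.67% and 9.72% of cells (log2 change 0.95, standard error 0.81, edgeR adjusted p = 0.693). The change was 0.19 with thinned cells, 0.44 when scaled by cell number and 1.35 without 0-hour run 1. The shares overlapped between time-points. The region 417 bp upstream of that start was seen in 7 cells, 4 of them in 24-hour run 4. The distal region 42195 bp upstream was also seen in 7 cells, at 8.33%, 2.13%, 3.33% and 0% (log2 change -0.82, standard error 1.33).

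Hbp1 held the member region detected in the most cells, 71 of 227, a promoter region of 168 bp (chr12, 31950302 to 31950469) that begins downstream of the start of transcript Hbp1-202 and overlaps a UTR. It was seen in 33.3%, 25.5%, 35% and 30.6% of cells. These shares overlapped, while the normalised sums gave a log2 change of 0.67 with a standard error of 0.49 (edgeR adjusted p = 0.628), which turned to -0.40 when cells were thinned to equal depth. A second promoter region, 192 bp downstream of the start of Hbp1-204, was detected in 4.17%, 6.38%, 5% and 9.72% of cells. The distal region 23135 bp upstream, inside Prkar2b, was seen at 14.6%, 8.51%, 1.67% and 4.17% (log2 change -1.49, standard error 0.96, edgeR adjusted p = 0.570). By normalised sums, both 24-hour runs lay below both 0-hour runs at this region, beside 35.8% of all distal regions within 50 kb. The region 46523 bp upstream, also inside Prkar2b, was seen in 7 cells. Both distal regions are assigned to Hbp1 by nearest start site only.

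Mier1 had no distal region within 50 kb. Its first promoter region (chr4, 103114300 to 103114444) covers the start of transcript Mier1-205, overlaps an exon of Wdr78 and lies within 1 kb of a start site of Wdr78, so its signal cannot be assigned to one of these genes. It was detected in 14.6%, 10.6%, 10.0% and 18.1% of cells (log2 change 0.38, standard error 0.66, edgeR adjusted p = 0.874). The second, at the start of Mier1-204 (chr4, 103119284 to 103119411), was seen at 8.33%, 0%, 6.67% and 9.72% (log2 change 1.57, standard error 1.00, edgeR adjusted p = 0.565). Its change was 5.97 without 0-hour run 1, where only the 0 counts of run 2 are left at 0 hours, 0.82 without run 2 and 0.39 with thinned cells. The 0 of 47 cells in 0-hour run 2 allow a share of up to 6.38% by the limit of 3 counts, and the exact interval reaches 7.55%. As a sum, the Mier1 promoters had a log2 change of 0.75 with a standard error of 0.56, and the normalised sums of runs 3 and 4 both exceeded those of runs 1 and 2. The change was 0.29 without run 4 and 0.26 when scaled by cell number.

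Rreb1 had 3 promoter regions and 4 intronic distal regions, and none of the 7 passed a threshold. The log2 change was below 0 at 6 of them, where 65.6% of all distal and 37.2% of all promoter regions were below 0. Normalised sums of the time-points overlapped at 5, beside 5901 of 10088 promoter and 3930 of 7482 distal regions of all genes. Without 24-hour run 4 the change was above 0 at 3. The promoter region at the start of Rreb1-209 (chr13, 37857825 to 37857956) was detected in 18.8%, 8.51%, 6.67% and 2.78% of cells (log2 change -0.73, standard error 0.83, edgeR adjusted p = 0.784). The neighbouring pair at the start of Rreb1-208 was seen in 6 and 9 cells, with none in 0-hour run 2. Of the distal regions, the one 3553 bp downstream of the start of Rreb1-202 was detected in 14.6%, 4.26%, 3.33% and 2.78% of cells (log2 change -1.65, standard error 1.01, edgeR adjusted p = 0.542). The other 3 were seen in 9 to 14 cells, with log2 changes of -0.43, -0.39 and 0.08, each smaller than its standard error. Summed over its 7 regions, Rreb1 had normalised sums of 334, 240.3, 226 and 132 CPM, which are counts scaled to equal depth. The log2 change of this sum was -0.70 with a standard error of 0.43 (edgeR adjusted p = 0.522). The runs held 55, 23, 28 and 18 counts, and the log2 change ranged from -1.58 with thinned cells to -0.37 without run 4.

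Taking all regions of a gene together, the log2 changes were -0.55 for Mef2c (standard error 0.34), 0.56 for Mef2a (0.63), 0.37 for Mef2d (0.45), 0.33 for Hbp1 (0.38), 0.75 for Mier1 (0.54) and -0.70 for Rreb1 (0.43). None of the 6 genes passed the adjusted threshold of edgeR, where 2 of 10023 genes did (0.0200%), and none had an unadjusted p under 0.05, beside 12.4% of all genes. DESeq2 called 0 of the 10023 genes (0%). Of the 11 promoter and distal sums of these genes 0 passed, against 38 of 12555 such sums (0.303%), and 2 had an unadjusted p under 0.05 (the Mef2c and Mef2d promoter sums), beside 12.7% of all sums. DESeq2 called none of the 3 sums that it gave an adjusted p, the Mef2c and Hbp1 promoter sums and the Mef2c distal sum, and gave none to the other 8. Of the 872 sums of all genes with an adjusted p from DESeq2 it called 6 (0.688%). The median log2 change over all genes was 0.13. For Mef2c, 64.6%, 59.6%, 45.0% and 30.6% of cells had signal in at least 1 of its regions. For Rreb1 these shares were 47.9%, 25.5%, 21.7% and 13.9%. With thinned cells the difference of the means went from -24.3 to -16.0 points for Mef2c and from -18.9 to -14.7 for Rreb1. At the other genes these shares overlapped between time-points. They were 18.8%, 8.51%, 11.7% and 12.5% for Mef2a and 37.5%, 17.0%, 23.3% and 26.4% for Mef2d. For Hbp1 they were 47.9%, 36.2%, 40.0% and 37.5%, and for Mier1 20.8%, 10.6%, 16.7% and 27.8%. The normalised sums of both 24-hour runs were below those of both 0-hour runs at Mef2c and Rreb1, 2 of the 6 genes, beside 19.9% of all genes, and above them at Mef2a, Hbp1 and Mier1, 3 of the 6, beside 24.2%.

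**Figure D3:**
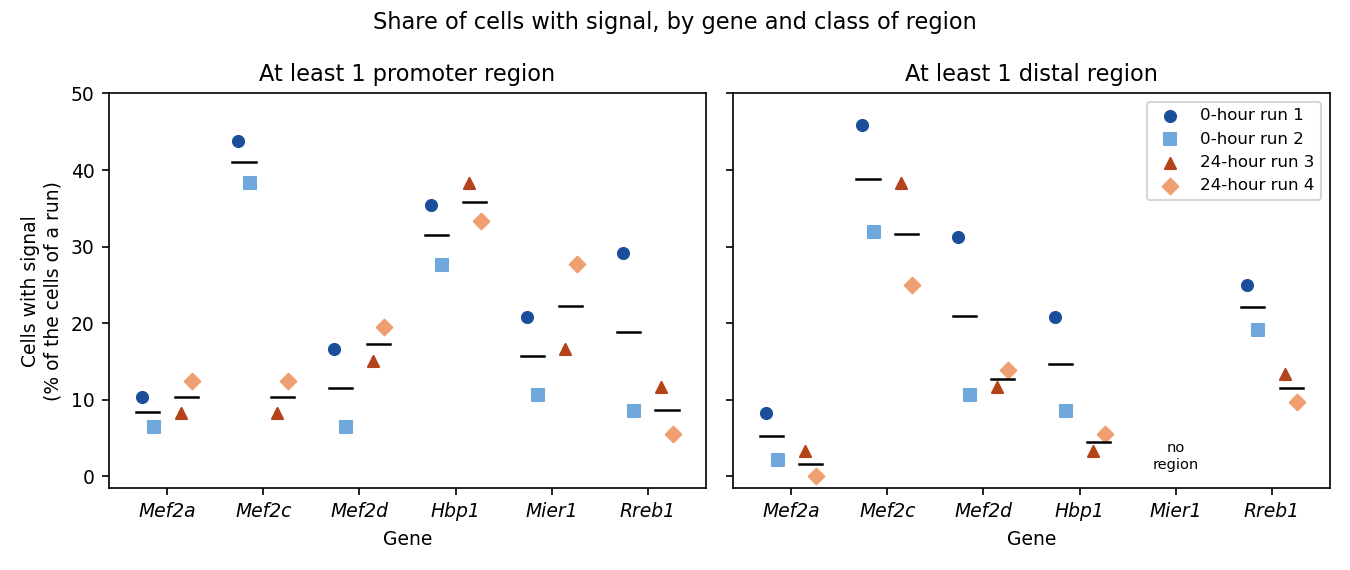
Share of cells with signal (% of the cells of a run) in at least 1 promoter region (left) or distal region (right) of each gene; symbols are the 4 runs and black lines the means of the 2 runs of a time-point. The Mef2c promoter share lies at 43.8% and 38.3% in runs 1 and 2 and at 8.33% and 12.5% in runs 3 and 4.

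Promoter and distal regions were then set against each other. Of the 13 promoter regions, 3 had normalised sums in runs 3 and 4 that were both below those in runs 1 and 2 (Mef2c at 133 bp upstream and 772 bp downstream, Rreb1 at 44 bp upstream), beside 14.3% of all promoter regions, and 4 had sums there that were both above (the largest promoter regions of Mef2a, Mef2d and Hbp1, and the second of Mier1), beside 27.2%. Of the 16 distal regions, 5 were below in this sense, beside 35.8% of all distal regions, and 1 was above, beside 11.6%. The median log2 change was 0.38 over the member promoter regions and -0.50 over the member distal regions, while all promoter regions had a median of 0.30 and all distal regions within 50 kb one of -0.56. The promoter sums of Mef2c and Rreb1 had changes below 0 (-1.39 and -0.79) and those of the other 4 genes changes above 0, but the Rreb1 sum was at 0.17 without run 1 and the Hbp1 sum at -0.36 with thinned cells.

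The class-by-time term of edgeR tested, within each gene, whether the ratio of distal to promoter signal differed between time-points. It called 0 of 2532 genes with both kinds of region (0%), and 245 (9.68%) had an unadjusted p under 0.05 with distal signal relatively lower at 24 hours, among them Hbp1 as the only member. The change of the log2 ratio of distal to promoter signal was -1.91 for Hbp1 (standard error 0.90, edgeR adjusted p = 0.459), -1.83 for Mef2a (1.68), -1.68 for Mef2d (1.03), 0.04 for Rreb1 (0.92) and 1.21 for Mef2c (0.71, adjusted p = 0.558). Leaving out 1 run moved the Mef2a value from -6.21 (without run 3) to -0.35 (without run 4). The median over the 2532 genes was -0.84, and 71.2% of genes were below 0. Of these genes 253 (9.99%) had a value as high as that of Mef2c or higher. Its log2 ratio, with 1 CPM added to both sums, was 0.84, 0.00, 2.34 and 0.99, so that the runs of the time-points did not overlap. Nor did they for Hbp1 (-0.64, -1.70, -3.53 and -2.66) and Mef2d (1.05, 0.79, -0.24 and -1.16), where the ratio was lower at 24 hours. The share of all genes without overlap was not counted. When promoter and distal columns were normalised by TMM separately, the median over genes became -0.11 and the values were 1.97 for Mef2c, 0.77 for Rreb1, -1.14 for Hbp1, -1.17 for Mef2a and -0.93 for Mef2d.

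**Figure D4:**
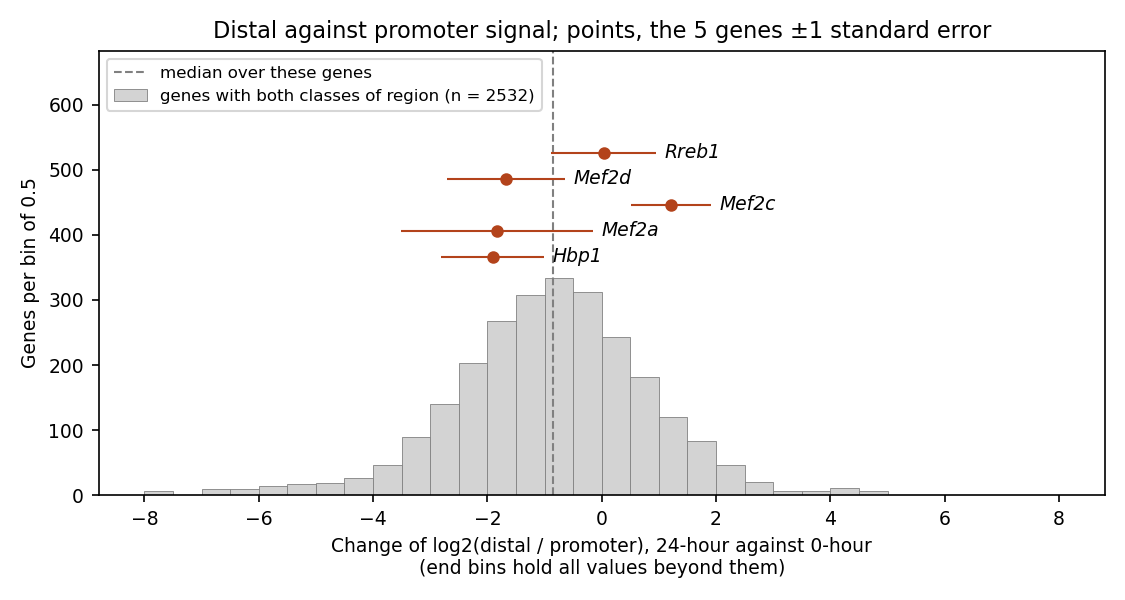
Histogram of the change of log2(distal/promoter) from 0 to 24 hours over 2532 genes (genes per bin of 0.5), with the 5 member genes that have both kinds of region drawn above it as points with 1 standard error. Mef2c (1.21) lies right of the median (-0.84, dashed), and Hbp1, Mef2a and Mef2d lie left of it.

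The member promoter regions had a median GC content of 68.1%, from 47.1 to 84.4%, and the distal ones of 52.7%, from 37.3 to 60.8%, while all promoter and all distal regions had medians of 65.5% and 53.4%. The internal Mef2c promoter, at 47.1%, had the lowest GC content of the member promoters. All 29 regions matched 1 place in the genome at 90% identity over 80% of their length. The Ikaros core GGGAA was present on either strand in 9 of the 29 regions, 4 promoter and 5 distal, where windows of the same lengths on all deposited regions held it in 33.9% on average. The internal Mef2c promoter held 2 copies, where 37.1% of all 140-bp windows centred on the deposited regions held at least 1. The MEF2 site, searched by its usual consensus, was found in 2 members, beside 1.38% of windows of the same lengths on average. These were the Mef2a promoter region over the start site and the Mef2c intronic region shown above. The latter held 2 matches, where 1.59% of all 146-bp windows held at least 1. How often windows held 2 matches of the Ikaros core or the MEF2 site was not counted. The E-box CACGTG was found in 2 members (the Mef2d region 3934 bp upstream and 1 Rreb1 promoter region) and TGTGGT of RUNX factors in 3, where 4.45% and 12.9% of windows of the same lengths held them. CGGAAG of ETS factors (15% of windows), TGANTCA of AP-1 (3.30%) and TCCCNNGGGA of EBF1 (2.11%) were found in none. GGGAA and the EBF1 letters can overlap. Such matches describe letters in these windows only.

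For each gene's most detected promoter region, the promoter regions of other genes with the closest shares of cells over the 4 runs were sought among 10085 to 10087 candidates. For the internal Mef2c promoter they were at Dusp6, a MAP kinase phosphatase (31.3%, 19.1%, 3.33% and 8.33%), Tyw1 and Oat, at mean differences of 3.18, 3.58 and 3.76 points. For Hbp1 they were at Eif4g2, Evi5l and Stk11, at 2.30, 2.41 and 2.68 points. For the other genes the closest region had exactly the same shares. For Mef2a the closest were Rhobtb2, Zfp647 and Rnf122 (0 points each), for Mef2d Ddx10 (0), Xrcc1 and U2surp (0.521 each), for Mier1 Glul (0), Zfp871 and Mmaa (0.347 each), and for Rreb1 Elob (0), Rdh11 (0.347) and Zfp748 (0.417).

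Genes that work with these regulators were examined as lists. The median log2 change of a list depends on its mix of promoter and distal regions, which was not matched. Over all genes, promoter regions had a median of 0.30 and distal regions within 50 kb one of -0.56. All 12 regulators and cofactors of MEF2, such as the class IIa deacetylases, had regions, 30 in all, of which 0 passed the adjusted threshold of edgeR in either direction, 3 were higher and 0 lower at an unadjusted p of 0.05 (12.1% of all regions in either direction), and the median log2 change was 0.19 beside -0.06 over all regions. Of the 11 of these regions seen in at least 10% of cells, 2 had the largest changes. The first was the Hdac5 promoter, at 10.4%, 4.26%, 13.3% and 38.9% of cells (log2 change 2.32 ± 0.66, standard error; edgeR adjusted p = 0.147). The second was a distal Hdac7 region at 18.8%, 17.0%, 6.67% and 4.17% (log2 change -1.57, standard error 0.78, edgeR adjusted p = 0.414). Both encode deacetylases that bind MEF2. The time-points did not overlap at either region. Of 5 MEF2 target genes known from other cells, 4 had regions (Klf4 had none), 17 in all, with 0 called, 0 at an unadjusted p of 0.05 and a median of -0.41. Of those in at least 10% of cells, the regions with the largest changes were a distal Egr1 region (22.9%, 8.51%, 8.33% and 4.17%, log2 change -1.03) and the Klf2 promoter (27.1%, 8.51%, 15.0% and 31.9%, log2 change 0.90).

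The 13 partners and targets of HBP1, MIER1 and RREB1 had 37 regions, with 0 called by edgeR (0.0547% of all regions), 0 at an unadjusted p of 0.05 (12.1% of all regions) and a median log2 change of -0.18. Of those in at least 10% of cells, the 2 with the largest changes both lay at Sin3a, a scaffold of deacetylase complexes. One was 1039 bp from a start site, at 8.33%, 8.51%, 15.0% and 9.72% of cells (log2 change 0.71, standard error 0.76). The other was a promoter region at 45.8%, 25.5%, 35% and 45.8% (log2 change 0.54, standard error 0.47). Other regulators that the study discusses (Ikzf1, Pax5, Myc and Nr3c1) had 28 regions, with 0 called, 1 higher and 2 lower at an unadjusted p of 0.05 beside the same shares of all regions, and a median of -0.46. Only 3 of the 28 were seen in at least 10% of cells, and the 2 of these with the largest changes were distal Pax5 regions, at 22.9%, 10.6%, 11.7% and 1.39% (log2 change -0.94) and at 16.7%, 6.38%, 11.7% and 12.5% (0.74), with standard errors of 0.80 and 0.73 (edgeR adjusted p = 0.691 and 0.748).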

How the data were processed

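The authors mapped single-cell ATAC-seq reads to mm10 with Bowtie2, removed duplicates with Picard, called peaks on bulk samples with HOMER and deposited whole-number counts per region and cell without normalization; versions are not given in the sources used here. No value exceeds 2. All 227 cell columns were used. Of 48, 63, 75 and 73 labelled single cells per run, 48, 47, 60 and 72 have a column. The bulk samples were not analysed here, and no doublet caller was run.

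Counts were summed per run and tested with edgeR 4.0.16 in R 4.3.3 (quasi-likelihood, TMM, Benjamini-Hochberg adjustment over the whole table, threshold 0.05) over 20103 regions, 10023 genes and 12555 promoter or distal sums. The distal-against-promoter test used run totals and a term for the run. DESeq2 1.42.0 was an alternative, as were run totals, cells as offset, detected or not, filters, thinning to 837 counts (23 cells left out: 0, 1, 13 and 9 per run), 1 start site per gene, 10 kb, each run left out and, added after seeing the data, a replicate block. Exact intervals are at 95%, and a count of 0 allows 3 counts of the total. Sequences were compared with the genome by BLAST 2.17.0. The tests were tested on simulated data.

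The members and gene lists were chosen with earlier results of these data known. The regions named are all member regions, the 3 closest promoter regions of other genes for each gene and, of each list, regions past the threshold or, with none, the 2 with the largest change among those in at least 10% of cells. One marker gene of the fixed list is not reported here.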

Additional observations from a re-analysis of the deposited data

How the results depend on the processing

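The matrix columns number the runs of each time-point 1 and 2. The deviations of same-numbered runs from their time-point means did not go together over 4761 regions (correlation -0.066), and nothing says that a number marks a shared batch. With this number as a replicate block, added after seeing the data, 0 member regions, genes, sums or terms were called, as without it. Over the whole tables it called 11 regions (11 without it), 7 genes (2 without it) and 16 sums (38 without it).

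Among the members with an adjusted p, none was called under any alternative except the Mef2c intronic region at 83603948 without 24-hour run 3 (1 member region, log2 change -6.38, edgeR adjusted p = 0.0325, run 4 alone then being taken to have the spread of the others), a fit that called 3.97% of all regions. DESeq2 gave no adjusted p to 8 of the 11 sums. Leaving out each other run gave 0 called regions, and leaving out any run gave 0 called genes, sums and terms. The internal Mef2c promoter kept its direction under its 11 alternatives, from -2.26 to -1.39 (adjusted p 0.0960 to 0.944), as did the Mef2d promoter region (0.72 to 1.86, adjusted p 0.108 to 0.980) and the Mef2c distal-against-promoter term under its 7 (0.54 to 1.97). Of 533 alternative log2 values 37 turned sign, none of them called, and with thinned cells 3 differences in shares of cells also turned: the Hbp1 promoters (4.30 to -3.37 points) and all regions of Mef2a (-1.55 to 0.82) and Mef2d (-2.40 to 2.23).

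Single regions are named here by gene and first base on mm10. Cells as offset moved the median of all regions from -0.06 to -0.51 and turned the regions Mef2d 88138370 (-0.23), Mier1 103114300 (-0.064) and Rreb1 37854597 (-0.23) and the sums over all regions of Mef2d (-0.18) and Hbp1 (-0.12). Thinning turned Mef2c 83608352 (-0.16) and 83649891 (1.96), Hbp1 31949357 (-0.20) and 31950302 (-0.40), all Hbp1 regions (-0.56) and the Hbp1 promoter sum (-0.36). Reducing values to detected or not turned the Mef2c distal sum (0.12). The cause was not tested.

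Leaving out 1 run moved 45 of 51 values by over 1.5 times in at least 1 fit and turned values with these ranges: Mef2a 67414994 -4.98 to 0.56, Mef2c 83532092 -4.65 to 0.084, Mef2c 83649170 -7.5e-05 to 3.98, Mef2c 83649891 -2.87 to 0.28, Mef2d 88138370 -0.22 to 1.77, Hbp1 31949357 -0.16 to 1.40, Hbp1 31997002 -1.28 to 3.96, Mier1 103114300 -0.10 to 0.75, Rreb1 37825854 -4.01 to 3.07, Rreb1 37825947 -1.75 to 4.27, Rreb1 37854597 -0.94 to 1.30, Rreb1 37882683 -1.18 to 0.15, all Mef2d regions -0.012 to 1.08, and the distal sums of Mef2a -4.98 to 0.56, Mef2c -0.64 to 0.22 and Mef2d -0.88 to 0.29, the Rreb1 promoter sum -1.27 to 0.17 and the Rreb1 distal-against-promoter term -0.86 to 0.68. With 1 start site per gene, Mef2c and Rreb1 had no promoter region, so their promoter sums and terms could not be computed. At this depth most member regions rest on under 20 cells.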
